A study of Mus musculus with 24 samples.

Results

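The hairpins described here are 46 microRNA (miRNA) precursors of the imprinted Dlk1-Dio3 domain of mouse chromosome 12, from mmu-mir-127 to mmu-mir-770. They were chosen by name from a list. All 46 were present in the deposited table of 1186 hairpins (3.88% of its entries), and their 92 mature arms were among 1915 mature miRNAs. No listed name carried a locus suffix. Another 14 of 16 hairpin names sought from the same domain were found and are given by their counts only. The list was set with earlier results of these data known, so its choice was not blind to the values. A mature arm of the hairpin that held most counts of the list had been named beforehand as an outlier to examine.

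In the Dlk1-Dio3 domain the noncoding RNAs Meg3, Rian and Mirg are transcribed from the chromosome inherited from the mother, and the miRNA hairpins lie within or beside these transcripts. Protein-coding genes of the domain such as Dlk1 and Rtl1 are expressed from the chromosome inherited from the father. The miRNAs are known as abundant in brain, embryo and placenta and as scarce in most adult tissues, liver included. A hairpin is the folded precursor from which the enzyme Dicer releases a 5p and a 3p arm. Bases 2 to 8 of an arm, the seed, carry most of its pairing with target mRNAs.

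Small RNA came from 24 mouse samples in 4 materials: exosomes from serum, exosomes shed into the medium of cultured primary hepatocytes, those hepatocytes, and liver. Each material had an untreated control, acetaminophen (APAP), and APAP with granulocyte colony-stimulating factor (G-CSF). Serum and liver came from mice given 500 mg/kg APAP, with or without 100 µg/kg G-CSF, whereas hepatocytes and their exosomes had 20 mM APAP, with or without 1 µg/ml G-CSF. APAP is a pain reliever that injures hepatocytes at high dose, and G-CSF is a cytokine that releases granulocytes from the marrow. Every condition was sequenced on an Ion Torrent PGM and on a Proton instrument, and the deposited tables hold 12 columns in which both libraries of a condition are combined. No replicate remains, so a ratio of 2 columns compares those libraries and its interval covers counting error only. The sources used here do not state how many mice or cultures stood behind a sample, nor their strain and age. For the serum columns of APAP-treated mice the titles and the treatment field disagree on which had G-CSF, and the treatment field was followed.

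The 44 hairpins with an entry in the RefSeq miRNA table (build GRCm38.p6) all lay on the plus strand within chr12:109563692-109743795, a span of 180.1 kb. mmu-mir-544 and mmu-mir-666 were matched by name only. The widest gap between neighbours, 90.72 kb between mir-370 and mir-379, divided them into a proximal block of 12 and a distal block of 34. By the GENCODE M21 annotation mir-770 lay in an exon of Meg3. The hairpins mir-431, mir-433, mir-127, mir-434 and mir-136 lay opposite an exon of Rtl1 on the other strand, and mir-341 and mir-370 lay in introns of Rian. A further 12 distal hairpins, mir-541 and mir-409 among them, lay within Mirg. The hairpin of mmu-mir-380 lay in the distal block at chr12:109711803-109711863, in no annotated host transcript. It shared no stretch of 16 bases with another listed hairpin, while mir-376b shared one with mir-376c and with mir-487b.

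The sequences that follow are the RefSeq entries for the hairpin that held most counts of the list and for the 5 mature arms with the highest summed counts. Each is written 5′ to 3′. In the hairpin, capitals mark both arms.
mmu-mir-380: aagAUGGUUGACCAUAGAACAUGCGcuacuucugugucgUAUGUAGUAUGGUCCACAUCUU
In the arms, capitals mark the seed.
mmu-miR-380-5p: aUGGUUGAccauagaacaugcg
mmu-miR-668-3p: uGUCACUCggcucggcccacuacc
mmu-miR-770-5p: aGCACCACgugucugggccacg
mmu-miR-494-3p: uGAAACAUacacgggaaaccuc
mmu-miR-541-5p: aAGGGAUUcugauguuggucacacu
The seed of miR-380-5p, UGGUUGA, belonged to no other arm of the list with a sequence, and the other 4 seeds differed from each other. Seeds were shared by miR-379-3p and miR-411-3p, by miR-410-5p and miR-494-5p, and by miR-376b-5p and miR-376c-5p. The arms were also set against GENCODE M21 transcripts, leaving out the domain's own non-miRNA genes, such as Meg3 and Mirg. No stretch of 16 bases of miR-380-5p or miR-668-3p occurred in the remaining transcripts of another gene. miR-770-5p shared one with the small nucleolar RNA Snord66.

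The 12 columns held 167 to 1307523 hairpin counts. Serum exosomes from APAP-treated mice and all 3 hepatocyte-exosome columns held 911 or fewer, and serum exosomes with G-CSF added held 4026. In these 5 shallow exosome columns no listed hairpin exceeded 4 counts. Hepatocyte-enriched hairpins (mir-122, mir-192, mir-194) made up 7.53% to 14.8% of hepatocyte and 8.27% to 18.2% of liver counts. In the hepatocyte exosomes these markers summed to 3 counts in control, 0 with APAP and 0.5 with G-CSF added, so the labelled source could not be checked there.

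A single hairpin, mmu-mir-380, carried nearly all of the list's counts in hepatocytes and in control serum exosomes, but not in liver. It made up 98.2% of the list in control serum exosomes. In hepatocytes it made up 90.9% in control, 98.4% with APAP and 99.0% with G-CSF added. In liver its part was 54.7% in control, 81.8% with APAP and 9.52% with G-CSF added. The list as a whole held 2.75% of hairpin counts in control serum exosomes (Wilson 95% interval 2.68% to 2.83%). In hepatocytes it held 0.132% in control, 2.17% with APAP and 2.22% with G-CSF added. In liver it held 0.369%, 0.501% and 0.338% in the same order. The other 45 hairpins together held 0.012% to 0.0341% in hepatocytes. In liver they held 0.167% in control, 0.0914% with APAP and 0.306% with G-CSF added, so that with G-CSF added they made up most of the list's share.

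**Figure D1:**
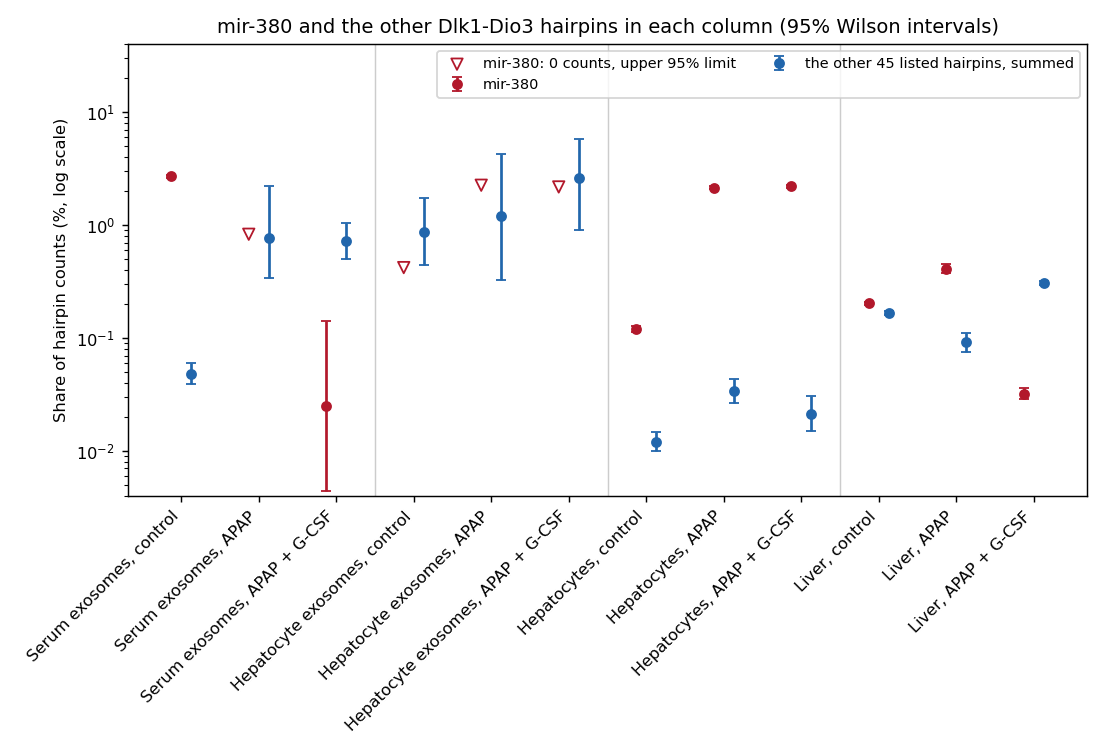
Share of each column's hairpin counts (percent, log axis) taken by mir-380 (red) and by the other 45 listed hairpins summed (blue), with 95% Wilson intervals. Open triangles are upper 95% limits where mir-380 had 0 counts. mir-380 is above the others in control serum exosomes and all 3 hepatocyte columns, and below them in liver with G-CSF added.

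mmu-mir-380 had 4897.5 counts in serum exosomes of controls, 0 with APAP and 1 with G-CSF added. In hepatocytes it had 1007 counts in control, 3843 with APAP and 3067 with G-CSF added. In liver it had 2643.3, 456 and 353 counts in the same order. It was at 0 in all 3 hepatocyte-exosome columns, whose depth allows shares of up to 0.329%, 1.79% and 1.74% (3 counts of the total). As a share of hairpin counts it was highest in control serum exosomes (2.7%), followed by the treated hepatocytes. Among all hairpins it ranked 6th in control serum exosomes and between 13 and 93 in hepatocytes. In liver its rank was 87 in control, 60 with APAP and 160 with G-CSF added.

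Relative to their own controls, mir-380 was higher in treated hepatocytes and lower in G-CSF-treated liver. The call used here needed at least 10 counts in 1 of the 2 columns, at least a 2-fold ratio after scaling, and an exact conditional (Clopper-Pearson) 95% interval that leaves out equality. In hepatocytes mir-380 was 13.6-fold higher with APAP than in control (95% interval 12.7 to 14.6). With G-CSF added it was 15.3-fold higher than in control (14.3 to 16.5) and 1.13-fold higher than with APAP alone (1.07 to 1.18), which is under the 2-fold limit. In liver it was 1.73-fold higher with APAP than in control (1.57 to 1.92), also under the limit. With G-CSF added it was 6.75-fold lower than in control (6.04 to 7.56) and 11.7-fold lower than with APAP alone (10.2 to 13.5). In the mature table the last of these turned round, with 0 counts of miR-380-5p with APAP and 12 with G-CSF added. The direction against control with G-CSF added thus differed between hepatocytes and liver, a difference that had no replicates to test it.

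In serum exosomes mir-380 was at least 4.15-fold lower with APAP than in control, with 0 counts entered as 3, and the exact interval placed it at least 3.37-fold lower. With G-CSF added it was 109-fold lower (19.5 to 4298), on 1 count. These sizes depend on the scaling: the log2 ratio with APAP was -2.05 by totals, -7.90 by TMM and -9.14 by DESeq2 size factors, and with G-CSF added it was -6.77, -12.29 and -13.92. Exchanging these 2 columns, as the titles have them, leaves mir-380 lower in both. The calls are on shares of column totals: the median log2 ratio of all measured hairpins against control was 4.03 with APAP and 1.54 with G-CSF added.

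In the mature table only the 5p arm of mir-380 was seen. miR-380-5p had 90 counts in serum exosomes of controls, and 0 in every other exosome column. In hepatocytes it had 19 counts in control, 57 with APAP and 47 with G-CSF added. In liver it had 45 in control and 12 with G-CSF added, and 0 with APAP. miR-380-3p was at 0 in all 12 columns. The hairpin exceeded its 5p arm by 53 to 67.4 times in hepatocytes and by 54.4 times in control serum exosomes. In liver it did so by 58.7 times in control and by 29.4 times with G-CSF added. Over all miRNAs the ratios were 31.3 to 33.7, 27.8, 26.5 and 25.1 in the same columns. Over 12 columns mir-299a, mir-376b, mir-382 and mir-543, on 4 or fewer mature counts each, exceeded the ratio of mir-380 (60.25). Every other listed hairpin with a mature count had a lower ratio.

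The liver column with APAP went against the mature table. There mir-380 had 456 hairpin counts (0.41%) and miR-380-5p had 0 of 19695 mature counts, which leaves a share of at most 0.0195% (upper Wilson limit). In control liver miR-380-5p held 0.0912% of mature counts. In mature counts mir-380 was thus lower with APAP than in control liver, where the hairpin was 1.73-fold higher. The same column had 5.65 hairpin counts per mature count over all miRNAs, while control liver had 26.5 and the G-CSF liver column had 25.1. Whether the column's library makeup bears on its mir-380 value was not tested.

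mmu-mir-668 and mmu-mir-770 showed the opposite relation. They were the only 2 of the 37 listed hairpins with a mature count that had more mature than hairpin counts. miR-668-3p had 117 mature counts against 8 counts of its hairpin. In liver miR-668-3p had 36 counts in control, 6 with APAP and 63 with G-CSF added, and its hairpin had 6, 0 and 1. miR-770-5p had 51 mature counts against 9 hairpin counts, with 21, 4 and 21 mature counts in the liver columns. Neither arm had a count in any exosome column. The mature values of these hairpins are therefore not a subset of their hairpin values. Of the 92 arms 49 had a count in some column, and after these 3 the highest sums were 19 for miR-494-3p and 16 for miR-541-5p.

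**Figure D2:**
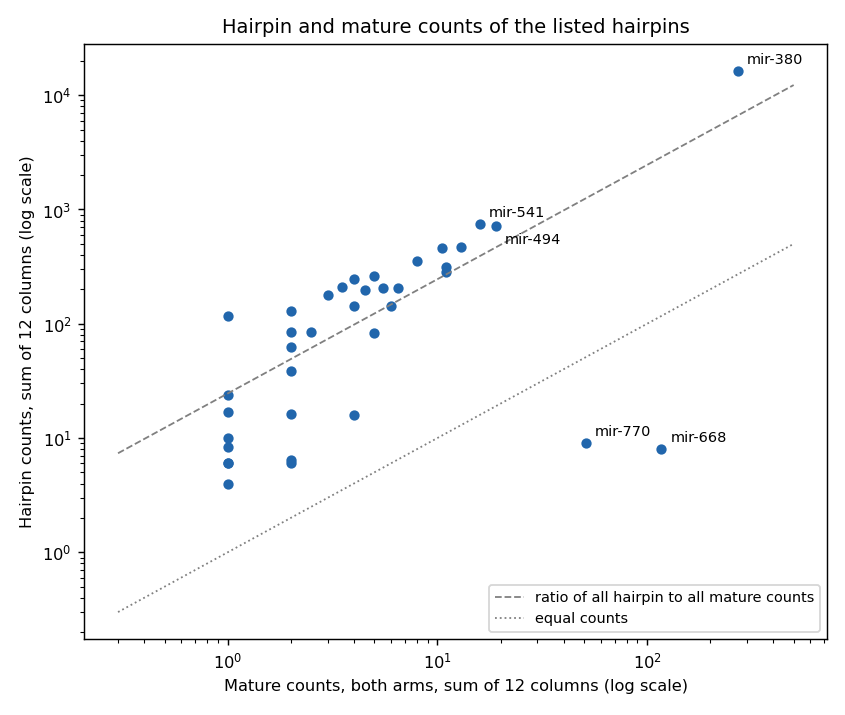
Hairpin counts against mature counts of both arms, each summed over 12 columns, for the 37 listed hairpins with a mature count (points), on log axes. The dashed line is the ratio of all hairpin to all mature counts (24.5), the dotted line is equality, and mir-668 and mir-770 are the only points below equality.

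Without mir-380, the other 45 hairpins were seen mainly in liver. They summed to 2186 counts in control liver, 102 with APAP and 3354 with G-CSF added. In hepatocytes they summed to 101, 61.2 and 29.5 counts in the same order, from totals of 139361 or more. Control serum exosomes held 87.5 counts of them, and each hepatocyte-exosome column 7.9 or fewer. Of the 46 hairpins, 38 had a count in control liver, 26 with APAP and 42 with G-CSF added. These were 82.6%, 56.5% and 91.3% of the list, against 75.8%, 46.5% and 69% of all hairpins. In hepatocytes 26, 21 and 13 were seen. These were 56.5%, 45.7% and 28.3% of the list, against 55.1%, 50.8% and 45% of all hairpins. In the control and APAP hepatocyte columns the list was thus near the share of all hairpins. mir-539 had no count in any column, and mir-370, mir-539 and mir-679 had none in liver. No listed hairpin was seen in all 12 columns.

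**Figure D3:**
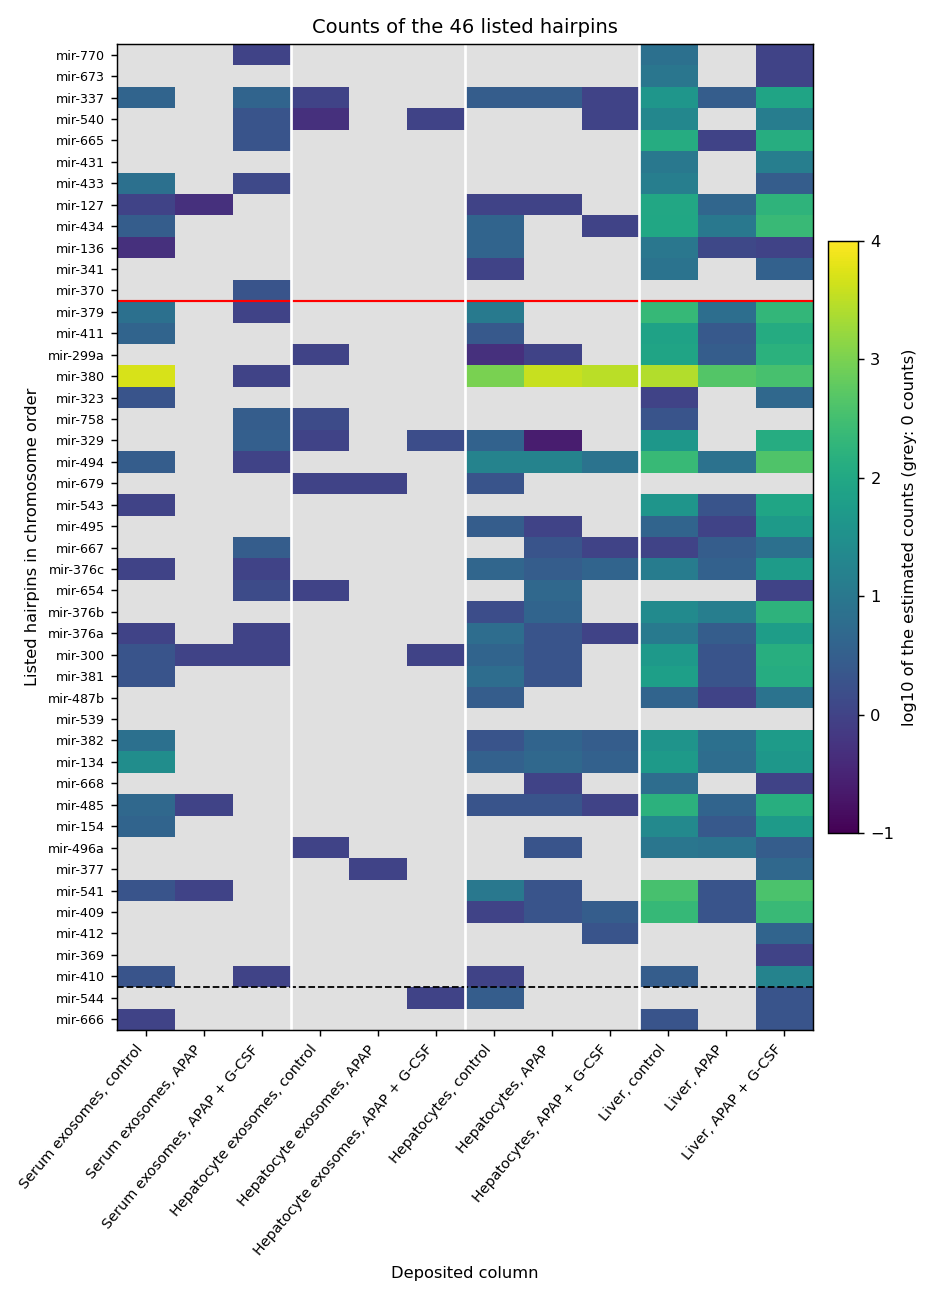
Estimated counts (log10 colour scale, grey for 0 counts) of the 46 listed hairpins in the 12 columns. Hairpins are in chromosome order, with the red line at the 90.72 kb gap and the 2 hairpins without a RefSeq entry below the dashed line. No hairpin other than mir-380 exceeds 425.5 counts in any column, and the liver columns hold most of the other counts.

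Counts of hairpins seen depend on depth. At the 4026 counts of the G-CSF serum column, control serum exosomes would be expected to show 2.73 listed hairpins, hepatocytes 1.47 to 2.28 and liver 4.32 to 9.58. Of all 1186 hairpins, 143.6 would be expected in control serum exosomes, 154.2 to 181.6 in hepatocytes and 199.9 to 210.6 in liver. The G-CSF serum column itself showed 17 (37.0% of the list), led by mir-337 with 4 counts and mir-329 with 3.33. That column also showed 64.8% of all hairpins in the table, against 38.8% in the much deeper control serum column. Its 17 listed hairpins therefore came with a wide spread of low counts over the table.

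In the shallow exosome columns the 45 hairpins held 0.72% to 2.6% of counts, from 29 counts or fewer in each. Other hairpin groups were also high there. Hairpins of the Sfmbt2-type repeat cluster (mir-297, mir-466, mir-467, mir-669) held 4.0% to 9.43% in those columns and 0.0493% to 0.0984% in hepatocytes and liver. Mirtron-type hairpins, which lie in short introns, held 1.74% to 9.42% there and 0.0327% to 0.934% in hepatocytes and liver. An exact two-sided permutation test of the share without mir-380 gave a mean of 1.03% ± 0.855 (SD, n = 6) in exosome columns against 0.105% ± 0.114 (SD, n = 6) in hepatocytes and liver, p = 0.00866. The adjusted value over 12 such comparisons was 0.104 (Benjamini-Hochberg). Treatments stand in as samples of a material in this test. Restricted to columns of at least 4000 hairpin counts, the difference was 0.279 percentage points (exact permutation p = 0.143). With mir-380 included the exosome mean was 1.49% ± 0.937 and the mean of the others 0.956% ± 0.969 (exact permutation p = 0.377, n = 6 each).

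Summed as a share of column totals, the listed hairpins other than mir-380 were higher in liver than in hepatocytes, although few passed the test. Of the 45, 15 were higher, as a share of the column total, in every liver column than in every hepatocyte column, and 14.1% of all hairpins were. They included mir-127, mir-379, mir-541, mir-434, mir-485 and mir-665. The edgeR quasi-likelihood test, with treatment as a covariate and treatments as the samples of a material, covered 372 hairpins and called 21 of them (5.65%) higher and 9 (2.42%) lower in liver at an adjusted p under 0.05. Of the 24 listed hairpins tested, 1 was called higher and 0 lower. At an unadjusted p under 0.05, 12 passed, but no share of all 372 at that limit stands beside it. The 12 is therefore not a result about the list. The median log2 difference, liver over hepatocytes, was 3.02 for the 24 and 0.41 for all 372. Most of the 24 met the count filter through liver columns alone. In hepatocytes 4, 2 and 1 of the 46 reached 10 counts (control, APAP, G-CSF added). Hairpins that enter in this way lean towards liver, so the filter in part sets this median. Without the filter the median was 2.55 for 44 listed hairpins, 39 of them above 0, and 0.6 for all 1058. No share of all 1058 above 0 stands beside the 39.

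The hairpin called was mmu-mir-665 of the proximal block. It had 127 counts in control liver, 1 with APAP and 133 with G-CSF added, and 0 in all 3 hepatocyte columns (edgeR adjusted p = 0.0348). It was not called when any 1 of the 6 columns was left out. Its fitted log2 difference is not given as a fold because hepatocytes were at 0. mir-543 was also at 0 in hepatocytes and had 41, 2 and 86 counts in liver (edgeR adjusted p = 0.0647). mir-127, which lies antisense to Rtl1 and targets its mRNA, had 1, 1 and 0 counts in hepatocytes and 100, 4.5 and 176.5 in liver. Its log2 difference was 4.33 ± 1.52 (SE) and its edgeR adjusted p was 0.0725. mir-380 was the only one of the 24 on the hepatocyte side, with a log2 difference of -3.31 ± 1.35 (SE) and an edgeR adjusted p of 0.12. It was called lower in liver without the hepatocyte control column (adjusted p = 0.00319) and without the liver control column (adjusted p = 0.000209). DESeq2 called 7 of the 24, with mir-380 lower in liver (adjusted p = 0.00349) and mir-127, mir-299a, mir-379, mir-434, mir-541 and mir-665 higher. Of all 372 hairpins it called 50 higher and 47 lower, so calls were common in that fit and not particular to the list.

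Hairpins known from stellate and other mesenchymal cells (mir-199a, mir-199b, mir-214, mir-143, mir-145) differed between the same columns. All 7 were detected in every hepatocyte and liver column. They summed to 4.94%, 3.04% and 4.48% of hairpin counts in liver (control, APAP, G-CSF added) and to 0.0208%, 0.171% and 0.0728% in hepatocytes. The endothelial mir-126a held 1.43% to 2.3% in liver and 0.26% to 0.981% in hepatocytes. Neural hairpins, 18 in the list, held 0.0311% to 0.0644% in liver and 0.0203% to 0.0221% in hepatocytes, with mir-129b at 0 in all 6 columns. Leukocyte hairpins (mir-223, mir-142, mir-150) held 0.227% to 0.837% in liver and 0.00882% to 0.017% in hepatocytes. Erythroid hairpins (mir-451a, mir-144, mir-486) held 0.166% to 5.26% in liver and 0.00107% to 0.00528% in hepatocytes. The part of these cell types in the liver values of the Dlk1-Dio3 hairpins was not tested, and fewer cells of a type cannot be told apart from less RNA per cell in bulk samples.

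In liver the other 45 hairpins together were lower with APAP and higher with G-CSF added. Their sum was 2.14-fold lower with APAP than in control (95% interval 1.75 to 2.63). With G-CSF added it was 1.7-fold higher than in control (1.61 to 1.8) and 3.64-fold higher than with APAP alone (2.98 to 4.47). The proximal block kept its part of the sum, with 20.3% of the 45 hairpins' counts in control (Wilson 95% interval 18.6% to 22%), 19.4% with APAP (13.1% to 28.3%) and 20% with G-CSF added (18.7% to 21.4%). Across the 45 hairpins the counts of control and G-CSF liver had a Spearman rho of 0.871, given as a description because hairpins share each library. Over the same 3 columns (control, APAP, G-CSF added) erythroid hairpins held 0.166%, 5.26% and 0.994% of counts and leukocyte hairpins 0.227%, 0.837% and 0.627%. Hepatocyte hairpins held 14.6%, 18.2% and 8.27%, and neural hairpins 0.0311%, 0.0354% and 0.0644%. The mesenchymal and endothelial hairpins given above moved as well, and the part of all these in the ratios was not tested.

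With APAP against control in liver, 25 listed hairpins had at least 10 counts in a column. Of these 1 was called higher and 6 lower, when 16.7% of all 432 measured hairpins were called higher and 19.9% lower. The median log2 ratio was -0.55 for the 25, with 4 hairpins at 0 entered at 3 counts, and 0.13 for all. Lower were mir-541 (344 counts in control, 2 with APAP; 17.1-fold, 4.7 to 142), mir-665 (127 and 1), mir-409 (221 and 2; 11-fold, 3.01 to 91.4), mir-485 (165 and 4), mir-379 (228.3 and 6.5) and mir-494 (233 and 7.5). The hairpin called higher was mir-376b, with 24.5 counts in control and 13.5 with APAP from a column with 111316 hairpin counts in place of 1307523 (5.54-fold, 2.7 to 11.2). These ratios rest on few counts in the APAP column, where no listed hairpin other than mir-380 exceeded 13.5. Only 3 of the 46 reached 10 counts there, whereas 25 did in control. Most were thus measured through the control column alone, which tilts the number called and the median towards lower. For mir-431, mir-433 and mir-540, at 0 with APAP, a difference was not detectable at this depth.

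With G-CSF added against control in liver, 14 of 27 measured listed hairpins were called higher and 2 lower, when 18.6% of all 458 were called higher and 21.4% lower. The median log2 ratio was 1.02 for the 27 and -0.15 for all 458. mir-495 had the highest ratio, from 4 to 54 counts (15-fold, 5.53 to 57). The 3 hairpins of the mir-376 family, which lie close together in the distal block, were all called higher. mir-376b went from 24.5 to 167.5 counts (7.59-fold, 4.88 to 11.8), mir-376a from 11 to 60 (6.05-fold, 3.15 to 12.8) and mir-376c from 12.5 to 55.5 (4.93-fold, 2.58 to 9.53). Because mir-376b and mir-376c share a stretch of 16 bases, how reads were divided between them is uncertain. mir-410, the last in chromosome order of the 44 listed hairpins with a position, went from 3 to 17 counts (6.29-fold, 1.82 to 33.5).

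Other called hairpins had more counts and smaller ratios. mir-434 went from 95 to 242 counts (2.83-fold, 2.22 to 3.62) and mir-494 from 233 to 425.5 (2.03-fold, 1.73 to 2.39). mir-329, mir-300, mir-154, mir-543, mir-299a, mir-337 and mir-381 were 2.11- to 3.17-fold higher. The hairpins called lower were mir-380 and mir-433, which went from 13.5 to 3 counts (4.06-fold, 1.17 to 22.8).

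Several of the most abundant hairpins did not pass the limit. mir-541 had 344 counts in control liver and 379 with G-CSF added (1.22-fold higher, 1.05 to 1.42). mir-409 had 221 and 242 (1.22-fold higher, 1.01 to 1.46), and mir-665 had 127 and 133 (1.16-fold higher, 0.904 to 1.49). mir-379 had 228.3 and 205.5, with a log2 ratio of 0.00. The intervals of all 3 mir-376 hairpins lay above those of mir-541, mir-409 and mir-665, a contrast between hairpins picked after their values were seen. mir-127 was 1.96-fold higher (1.53 at the lower limit), just under the limit.

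**Figure D4:**
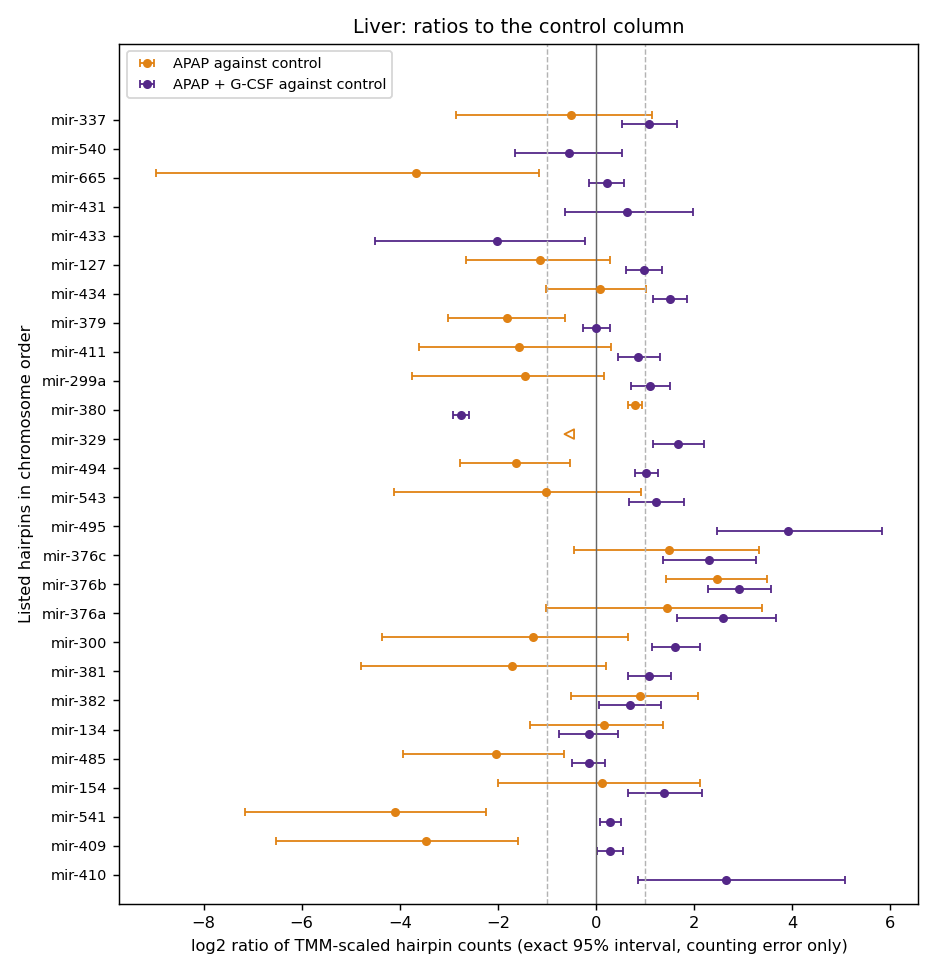
log2 ratios of scaled counts against control liver for the listed hairpins with at least 10 counts in a column, for APAP (orange) and APAP with G-CSF (purple), in chromosome order, with exact 95% intervals that cover counting error only. The open triangle is an upper bound from 0 counts, 3 hairpins at 0 with an uninformative bound are not drawn, and dashed lines mark 2-fold. With G-CSF added, mir-495, the mir-376 hairpins and mir-410 lie farthest to the right and mir-380 farthest to the left.

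Against APAP alone, G-CSF liver had 15 of 26 measured listed hairpins higher and 1 lower (mir-380), when 18.7% of all 379 were called higher and 12.9% lower. The median log2 ratio was 1.85 for the 26 and 0.07 for all 379. The largest ratios were those of mir-541 (2 and 379 counts; 20.9-fold, 5.75 to 174), mir-665 (1 and 133; 14.7-fold, 2.59 to 584) and mir-409 (2 and 242; 13.4-fold, 3.66 to 111). mir-376b, at 13.5 and 167.5 counts, was not called (1.37-fold higher, 0.768 to 2.48). Both comparisons with the APAP column share that column and its low counts. Only 3 of the 46 reached 10 counts with APAP, whereas 26 did with G-CSF added. Most of the 26 measured here thus passed through the G-CSF column alone, which tilts the number called and the median towards higher.

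In hepatocytes few listed hairpins reached 10 counts. With APAP against control, 2 of 4 measured were called higher and 0 lower, when 29.8% of all 302 were called higher and 33.8% lower. They were mir-380 and mir-494. mir-494 had 17 counts in both columns and was 3.56-fold higher after scaling (1.71 to 7.42), since the APAP column held 179751 hairpin counts and the control 838624. With G-CSF added against control, 1 of 4 (mir-380) was called higher and 0 lower, when 26.6% and 34.5% of all 290 were. With G-CSF added against APAP alone, 0 of 2 were called in either direction, when 7.83% of 230 were called higher and 14.3% lower. mir-494 was lower with APAP in liver (3.09-fold, 1.45 to 6.79) and higher in hepatocytes.

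In serum exosomes 2 listed hairpins were measured, mir-380 and mir-134. With APAP against control 0 were called higher and 1 lower, when 6.57% of all 198 were called higher and 5.05% lower. With G-CSF added against control 0 were called higher and 1 lower, when 30.6% of all 242 were called higher and 13.6% lower. mir-134 had 28 counts in the control column and 0 in both treated ones, a difference not detectable at their depth when scaled by totals. No listed hairpin had 10 counts in any column in the other serum comparison or in hepatocyte exosomes.

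The profile of mir-380 over the 12 columns was set against those of the 200 hairpins with at least 500 counts in all, by Pearson's r of log2(CPM + 1), where CPM is the count scaled to a common column total. The nearest were mir-130a (r = 0.957), mir-130c (0.956) and mir-484 (0.94). Of the other listed hairpins only mir-494 and mir-541 had 500 counts and were compared. They lay farther away, with mir-494 at 0.783 (place 82 of 200) and mir-541 at 0.0806 (place 183). The liver-enriched mir-122 had 0.626. These values over 12 columns of unequal depth are a description only, since in a shallow column 1 count is a high value: mir-541 had 1 count in the APAP serum column of 460, where mir-380 had 0.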

How the data were processed

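The authors deposited estimated counts (expected counts), made per hairpin and per mature miRNA and combined over both instruments into 12 columns, per the file headers. The aligner, build and annotation behind them are not stated in the labels or files used here, nor is the way multiply matching reads were shared out. Of the 223 nonzero values of the listed hairpins, 79.8% were whole within 0.001. Per the labels' protocols, RNA came from a Norgen kit and libraries from the Ion Total RNA-Seq Kit v2. Names tied each of the 12 columns to its sample titles.

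The members, lists and tests were chosen with earlier results of these data known. Counts were rounded for edgeR 4.0.16 and DESeq2 1.42.0 (R 4.3.3). In hepatocytes and liver, ratios were scaled by trimmed mean of M values (TMM) factors, after keeping hairpins with at least 10 counts in 1 of 3 columns. Column totals were used in exosomes. A count that rounded to 0 was entered as 3. The edgeR test kept hairpins with at least 10 counts in at least 2 columns, adjusted p-values over all tested (Benjamini-Hochberg), and gave standard errors as the log2 difference over the square root of F. Permutation tests used SciPy 1.17.1. Samples within a fit are treatments, not separate animals or cultures. Named hairpins were mir-380, mir-127 and mir-122, the leading members of a column, the called members, up to 10 per direction, and the 5 leading arms. Others named, such as the called hairpins beyond 10 per direction and the hairpins under the fold limit in liver, were chosen after their values were seen. The scripts were tested on simulated data.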

Additional observations from a re-analysis of the deposited data

Results flagged for a closer look

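The share of mir-380 in control serum exosomes, 2.7% of hairpin counts, stood apart from the other 5 exosome columns by Dixon's test at its 95% critical value. Of those 5, 4 were at 0 in columns of 167 to 911 counts, whose upper 95% limits reach 2.25%, so the gap is set against values limited by depth. Chance marks about 1 in 20 groups in this way, and 6 sets of columns were tested. The arm miR-380-5p had been named beforehand as an outlier to examine, so an outlier test on mir-380 adds no independent support.

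The log2 ratio of mir-380 against control took opposite directions between materials. With APAP it was -2.05 in serum exosomes, a bound from 0 counts, and 3.77 in hepatocytes. With G-CSF added it was -6.77 in serum exosomes, 3.94 in hepatocytes and -2.75 in liver. mir-494 with APAP had a log2 ratio of 1.83 in hepatocytes and -1.63 in liver. Each column is a single combined sample, and these differences between materials were not tested.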

How the results depend on the processing

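No paired analysis was possible because the columns combine both instruments, so the planned fit with the instrument as a block was not run. DESeq2 size factors were not computed for the mature exosome tables, and hepatocyte exosomes had no measured listed hairpin.

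The list's share (percent) without mir-380 was 0.0483 in control serum exosomes, 0.012, 0.0341 and 0.0212 in hepatocytes and 0.167, 0.0914 and 0.306 in liver (control, APAP, G-CSF added). With mir-380 included, the list's share in the mature table was 1.43 in control serum exosomes, 0.434 with G-CSF added, 0 in G-CSF hepatocyte exosomes, 1.2 and 1.12 in treated hepatocytes and 0.331, 0.0863 and 0.386 in liver. Of totals without mir-122, mir-30 and mir-21, the whole list's share was 7.11 in control serum exosomes, 0.207, 2.94 and 3.81 in hepatocytes and 0.455, 0.732 and 0.417 in liver. From whole values only, which leaves out mir-380 where its count is not whole, it was 0.048 in control serum exosomes and 0.139 and 0.176 in control and G-CSF liver, and with the domain's other hairpins it was 0.386 and 0.355 there. The exosome difference without mir-380 was 0.927 points (exact permutation p = 0.00866), and 2 of its alternatives, chosen after seeing the data, no longer passed: 0.615 in the mature table (p = 0.117) and 0.279 in deep columns (p = 0.143).

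At 4026 counts the listed hairpins expected were 2.73 in control serum exosomes, 1.47, 2.28 and 1.83 in hepatocytes and 6.34, 4.32 and 9.58 in liver. Listed hairpins called lower in serum exosomes were 2 with DESeq2 size factors in both comparisons with control, and 2 with TMM for G-CSF added. In hepatocytes with APAP, those higher were 1 at 30 counts, 1 at 4-fold and 1 in the mature table. With G-CSF added they were 2 by totals, 2 by DESeq2 size factors and 2 when scaled without mir-122, mir-30 and mir-21. In liver with APAP, those higher were 2 by totals, 0 at 30 counts and 0 in the mature table, where 1 was lower. With G-CSF added against control, 11 to 15 were higher under other scalings, 5 at 4-fold, 0 in the mature table, and those lower were 1 at 30 counts and 1 in the mature table. Against APAP the mature table had 1 higher and 0 lower. Of the listed arms only miR-380-5p, miR-668-3p, miR-770-5p and miR-494-3p reached 10 mature counts in a liver column. Few arms could thus be called there. No share of all hairpins called under the same alternatives stands beside these counts, which are therefore not results about the list. mir-380 in liver with APAP reached a log2 ratio of 1.02 by totals, so that it was called. In the mature table its log2 ratio turned to -2.42 with APAP and to 0.55 for G-CSF against APAP, both bounds from 0 counts with APAP entered as 3. In the edgeR comparison of liver and hepatocytes, 6 listed hairpins were called with material alone, 0 with all 12 columns, 7 by DESeq2 and 0 to 3 with a column left out. Of all 372 hairpins, material alone called 34 higher and 10 lower in liver, and DESeq2 called 50 and 47. Without the liver control column, where 3 listed hairpins were called, 40 of all 290 were higher and 36 lower. mir-665 was called in none of the 6 fits that left out a column. The cause of these changes was not tested. Other scalings moved the median log2 ratio of all hairpins by up to -7.16 in serum exosomes, -0.63 in hepatocytes and 0.23 in liver.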
